A study of Canis lupus familiaris with 7 samples.

Results

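The discs large gene DLG2 and 8 genes that code for its relatives or partners in membrane scaffolds (DLG3, DLG5, CASK, TJP1, MAGI1, LIN7C, MPP1 and SCRIB) were examined one probe at a time in canine osteosarcoma. A probe was taken when it was no control spot and its gene symbol in the array files equalled 1 of these 9 names. This gave 11 of the 43603 probes on the array, for 7 of the 9 genes. DLG2, DLG3 and DLG5 had 1 probe each, and CASK, TJP1, LIN7C and MPP1 had 2 each. MAGI1 and SCRIB had no probe under their symbol.

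The series measured RNA of 7 primary osteosarcomas from pet dogs, a bone tumor of the osteoblast lineage, with 1 single-color Agilent array per tumor. The groups were 4 tumors labelled DLG2 deleted (deleted tumors 1 to 4, from dogs of 8, 9, 6 and 7 years) and 3 labelled DLG2 wild type (wild-type tumors 1 to 3, from dogs of 12, 10 and 8 years). The sex label, which the submitters did not spell out, was MC for deleted tumors 1 and 3 and wild-type tumor 3, and FS for the other 4 tumors. The labels name no treatment, and they do not say how much of DLG2 was lost, on how many copies or in what share of the cells.

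DLG2 belongs to the membrane-associated guanylate kinase (MAGUK) proteins. These proteins carry PDZ domains, which hold the tails of receptors, channels and adhesion molecules, an SH3 domain and a guanylate kinase domain that has lost its enzyme activity and binds other proteins instead. DLG proteins, SCRIB and the LGL proteins together set apart the basolateral side of polarized cells, and in neurons DLG proteins anchor receptors and potassium channels at synapses. CASK, LIN7 and many, though not all, of the MPP proteins form a further set of scaffolds through their L27 domains, while TJP1 (ZO-1) and MAGI1 sit at tight junctions.

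On this array a member was read by DNA oligonucleotides 60 bases long, and the value of a member is the value of that stretch of its transcript alone. The oligonucleotides below are read 5′ to 3′ from the array files. They are those of the DLG2 probes and 1 each for DLG5, CASK, LIN7C, MPP1 and TJP1. Each printed stretch holds a reading frame without an internal stop codon. So does the DLG3 probe, which is not printed. The sequences are shown because each value below is the signal of such a stretch. A deletion can remove part of a gene and leave another part in place.
DLG2, probe with the symbol: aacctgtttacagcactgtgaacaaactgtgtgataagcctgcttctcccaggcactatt
DLG2, probe with the name only in its description: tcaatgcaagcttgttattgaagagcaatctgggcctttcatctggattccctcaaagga
DLG5: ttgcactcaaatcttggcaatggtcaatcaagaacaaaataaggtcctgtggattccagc
CASK, second probe: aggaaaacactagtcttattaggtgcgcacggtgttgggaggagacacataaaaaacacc
LIN7C, first probe: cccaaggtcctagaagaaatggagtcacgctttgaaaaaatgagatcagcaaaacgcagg
MPP1, first probe: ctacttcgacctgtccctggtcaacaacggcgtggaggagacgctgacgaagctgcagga
TJP1, second probe: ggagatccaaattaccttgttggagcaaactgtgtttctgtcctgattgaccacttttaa
The GC content of the 11 member probes and the second DLG2 probe ran from 35% to 60%. The longest exact run that any of them shared with another probe of the array, on either strand, was 16 bases, in the second MPP1 probe. The first MPP1 probe was the most GC-rich, and 1.6% of all probes on the array had a higher GC content.

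Values are spot intensities on the log2 scale after background correction and quantile normalization, so a difference of 1 is a doubling of intensity. A probe was tested when it was well above its local background on at least 3 of the 7 arrays. All 11 member probes passed, and 10 of them were well above background on all 7 arrays. The exception was DLG3, which was so in 2 of 4 deleted and 3 of 3 wild-type tumors. The arrays showed between 30280 and 34538 probes well above background. Wild-type tumors 1 and 2 were more alike than any other pair (r = 0.987 across all kept probes, against 0.936 to 0.966 for the other pairs). Counting them as 1 tumor is therefore given below as a further setting. The tumors were treated as coming from different dogs, though age and sex label alone do not separate deleted tumor 1 from wild-type tumor 3. Nothing states how the pieces were sampled, so the spread between tumors includes both dog and sampling.

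No member probe differed between the groups at the threshold of the study's methods, an unadjusted p below 0.05 with an adjusted p below 0.1. The count was 0 of 11 for the members and 0% of the 32309 probes tested (limma with Benjamini-Hochberg adjustment, smallest adjusted p over all probes 0.120). At an unadjusted p below 0.05 alone it was 0 of 11 member probes, where 7.27% of all probes passed. The methods' t-test, adjusted in the same way, also called 0 of 11. The values of the 2 groups overlapped for all 11 member probes, whereas 8.15% of all probes had groups that did not overlap. Of the member probes, 5 had a lower and 6 a higher mean in the deleted tumors, and 49% of all probes had a lower one. The adjusted p of the members lay between 0.710 and 0.966. The median size of their differences was 0.28, against 0.14 for all probes, and the median half-width of their 95% confidence intervals was 0.59, against 0.43. All 11 intervals included 0.

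**Figure D1:**
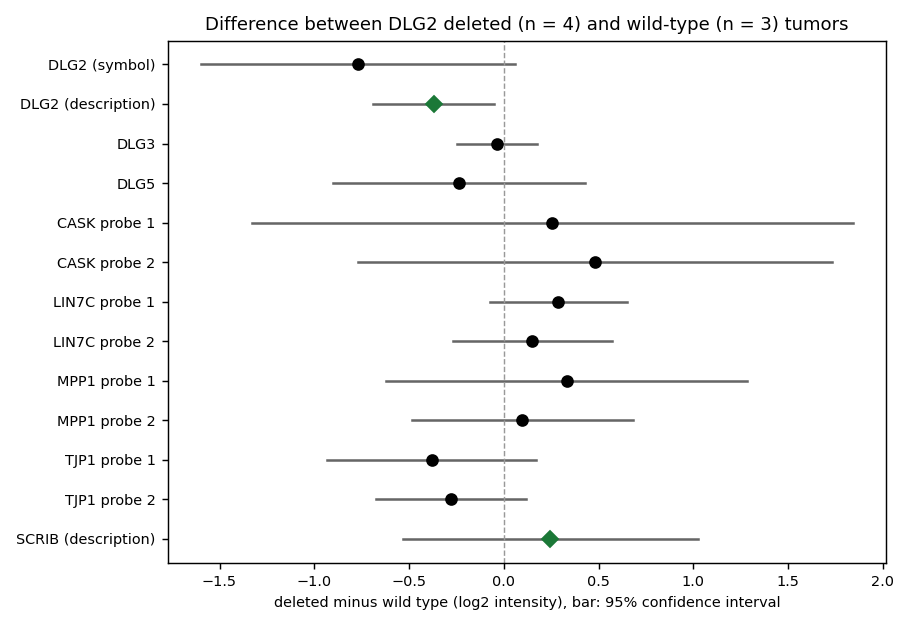
Difference between the mean of the 4 deleted and the mean of the 3 wild-type tumors on the log2 intensity scale (horizontal axis), with its 95% confidence interval, for the 11 member probes (circles) and for the 2 probes that name DLG2 and SCRIB in their description (diamonds). The interval includes 0 for every probe except the second DLG2 probe, whose interval ran from -0.69 to -0.05.

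DLG2 itself was measured by probe A_11_P068516, on the plus strand at chr21:18338004-18338063 of the canFam2 build. Its log2 intensity was 10.37, 11.44, 10.51 and 10.84 in deleted tumors 1 to 4 and 10.91, 12.03 and 11.75 in wild-type tumors 1 to 3. Deleted tumors 1, 3 and 4 were below every wild-type tumor, and deleted tumor 2 lay above wild-type tumor 1. The mean was 10.79 ± 0.47 (SD, n = 4) in the deleted and 11.56 ± 0.58 (SD, n = 3) in the wild-type tumors. The difference was -0.77 with a standard error of 0.35 and a 95% confidence interval of -1.60 to 0.06, a ratio of 0.586 with an interval of 0.330 to 1.04. Among the member probes this was the smallest unadjusted p of limma's test (0.064, adjusted p 0.710). An exact permutation test over the 35 ways to split 7 tumors into 4 and 3 gave p = 0.114 (two-sided), where the smallest p it allows is 0.0571.

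The DLG2 signal was not weak in any tumor of either group. Its mean spot intensity was 59.5 to 127 times the local background in the deleted and 106 to 218 times in the wild-type tumors. The probe was also among the more variable ones, since 9.06% of all kept probes had a larger SD over the 7 tumors. These are bulk tumor pieces, in which fewer cells that express a gene and less RNA per cell cannot be told apart.

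A second probe, A_11_P0000029161, names DLG2 in its description while its symbol column is empty, so it falls outside the rule and was added after its values were seen. It lies on the plus strand at chr21:18773733-18773792, 435669 bases downstream of the first. Its log2 intensity was 6.89, 7.27, 7.17 and 7.10 in deleted tumors 1 to 4 and 7.41, 7.34 and 7.69 in wild-type tumors 1 to 3. Here every deleted tumor lay below every wild-type tumor. The mean was 7.11 ± 0.16 (SD, n = 4) against 7.48 ± 0.19 (SD, n = 3), a difference of -0.37 with a standard error of 0.13. The unadjusted p was 0.029 and the adjusted p 0.643 in limma's test over all probes, and the exact permutation test gave its smallest possible p of 0.0571. Its mean spot intensity was 2.32 to 4.01 times the local background in the deleted and 5.16 to 10.3 times in the wild-type tumors.

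The order of the tumors was not the same at both DLG2 probes. Deleted tumor 1 was the lowest at each of them, but the highest was wild-type tumor 2 at the first and wild-type tumor 3 at the second. A pair of probes without a gene name lie in the same stretch of chromosome 21. The first starts at chr21:18756906, between the DLG2 probes, and differed by -0.20 (standard error 0.12, unadjusted p 0.137). The other starts at chr21:17779710, ends 558234 bases before the first DLG2 probe, and differed by -0.07 (standard error 0.10, unadjusted p 0.483). The paper's coordinates for the canine focal deletion, whose build it does not name, enclose this other probe but neither DLG2 probe. The labels do not give the extent of the deletion in each tumor. Whether the pair of probes without a gene name are parts of DLG2 transcripts was not analysed here.

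The arrays fell on 5 slides and into 2 sessions of image feature extraction. Both sessions held both groups, but only 1 slide did. The sessions were set here by the hour of the extraction time in the file headers, before noon or later, without the date. On the slide that held deleted tumors 2 and 3 with wild-type tumor 2, the first DLG2 probe differed by -1.06. Within the extraction sessions it differed by -1.10 (3 deleted against 1 wild-type tumor) and by -0.95 (1 against 2). For the second DLG2 probe the same 3 values were -0.11, -0.15 and -0.66, so its difference was smaller on the shared slide and in the first session. With the session as a term the first DLG2 probe reached an unadjusted p of 0.020 at a difference of -1.03, with an adjusted p of 0.610 in limma's test. Leaving out wild-type tumor 3 brought the second probe to -0.26 with an unadjusted p of 0.102. With Agilent's processed intensity in place of the normexp correction it was at -0.87 after 75th percentile scaling (unadjusted p 0.041) and at -0.78 after quantile normalization (unadjusted p 0.053).

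**Figure D2:**
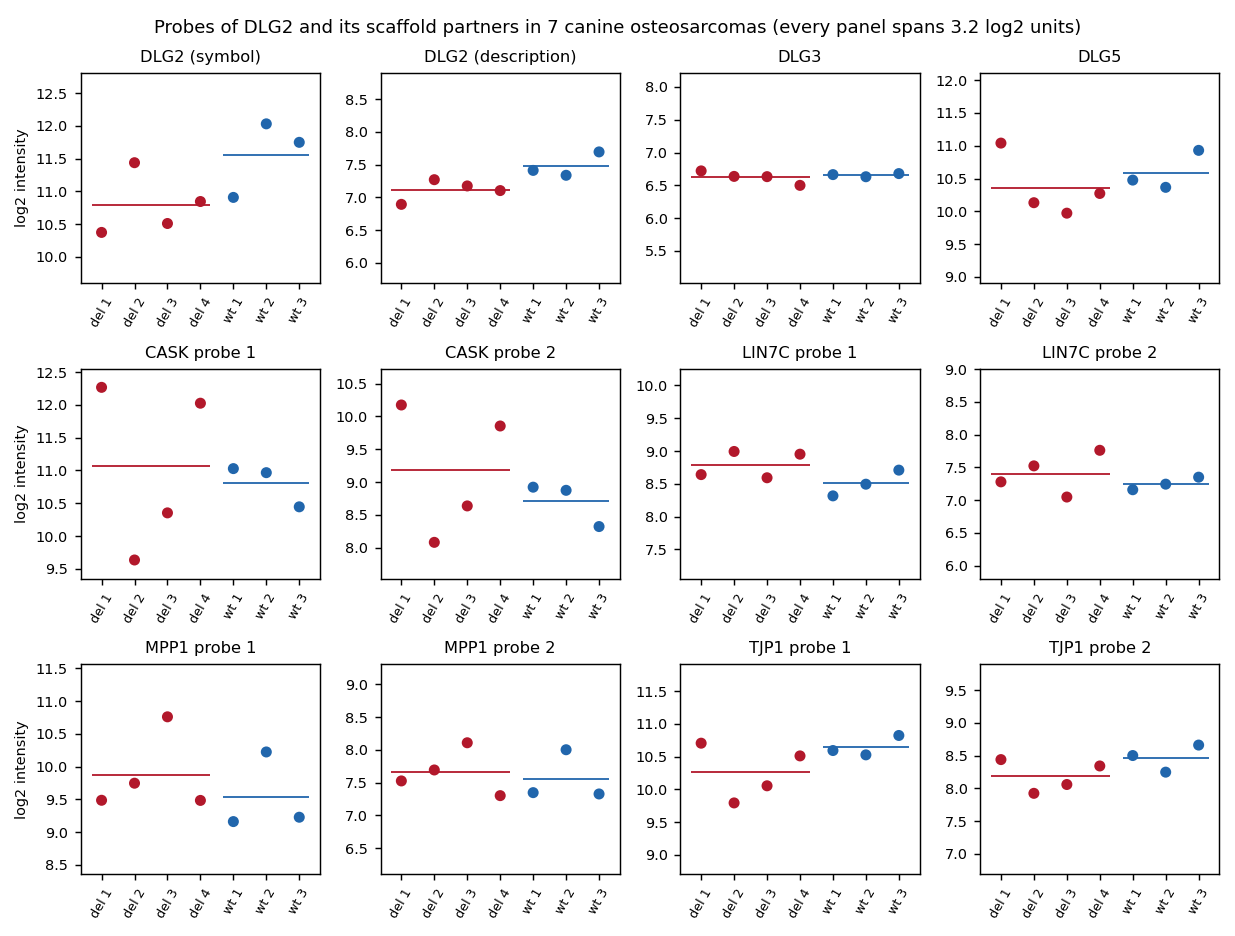
Log2 intensity (vertical axis, every panel spanning the same number of log2 units) of the 11 member probes and the second DLG2 probe in each tumor, deleted in red (del 1 to 4) and wild type in blue (wt 1 to 3), with a line at each group's mean. The groups overlap in every panel but that of the second DLG2 probe, CASK spreads over 2.63 and 2.10 log2 units, and DLG3 over 0.22.

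DLG3, an X-linked DLG protein of synapses (SAP102), was read by probe A_11_P114971 at chrX:57865996-57866055, plus strand. Its values were 6.72, 6.64, 6.63 and 6.50 in the deleted and 6.66, 6.63 and 6.68 in the wild-type tumors. All 7 lay within 0.22, and the difference was -0.04 with a 95% confidence interval of -0.25 to 0.17. Its spots were only 1.36 to 2.41 times the local background, and a difference was not detectable at this signal. The narrow range and interval depended on the processing. With Agilent's processed intensity the DLG3 difference was -0.53 after 75th percentile scaling and -0.30 after quantile normalization. With normexp and 75th percentile scaling it was 0.73. DLG5, a larger MAGUK protein at cell contacts that also takes part in growth control, was read by probe A_11_P0000032318 at chr4:30898947-30899006, minus strand. It was 11.04, 10.13, 9.97 and 10.27 in the deleted and 10.48, 10.37 and 10.93 in the wild-type tumors. Deleted tumor 1 was the highest of all 7 and the other 3 deleted tumors the lowest. The difference of -0.24 (95% confidence interval -0.90 to 0.43) therefore depended on that tumor, and it was -0.47 without it (unadjusted p 0.043, adjusted p 0.619 in limma's test).

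CASK, a scaffold kinase that binds neurexins and syndecans and joins LIN7 and MPP proteins, varied more than any other member. Its first probe, A_11_P114506 (chrX:35889034-35889093, minus strand), read 12.27, 9.63, 10.35 and 12.03 in deleted tumors 1 to 4 and 11.03, 10.97 and 10.45 in wild-type tumors 1 to 3. Its second probe, A_11_P153818, whose 60 bases match a genomic stretch of 162 bases (chrX:35903672-35903833, minus strand) with a gap, read 10.18, 8.08, 8.64 and 9.86 in the deleted and 8.92, 8.87 and 8.32 in the wild-type tumors. The symbol column of the second probe names CASK, while its description names the receptor gene GPR34. Both probes placed deleted tumors 1 and 4 at the top and deleted tumor 2 at the bottom, with the wild-type tumors between. Over the 7 tumors 3.04% of all kept probes had a larger SD than the first CASK probe and 5.22% a larger one than the second.

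The CASK means of the 2 groups were close compared with that spread. The first probe differed by 0.26 (standard error 0.67, 95% confidence interval -1.33 to 1.84) and the second by 0.48 (standard error 0.53, interval -0.77 to 1.73), with adjusted p of 0.966 and 0.909. On the shared slide, which held deleted tumors 2 and 3, the sign turned, to -0.97 and -0.52. The median deviation of 6 osteoblast markers from their own means followed a like order among the deleted tumors, at 0.15, -1.10, -0.20 and 0.56 in tumors 1 to 4, against 0.35, -0.04 and 0.19 in the wild type. Their part in the CASK values was not tested.

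LIN7C, a small PDZ protein that holds CASK-bound complexes at the basolateral membrane, lies on chromosome 21 as DLG2 does. Its first probe, A_11_P0000029344 (chr21:51259157-51259216, minus strand), read 8.64, 8.99, 8.59 and 8.95 in the deleted and 8.32, 8.49 and 8.71 in the wild-type tumors. Only wild-type tumor 3 overlapped the deleted group. The mean was 8.79 ± 0.21 (SD, n = 4) against 8.51 ± 0.20 (SD, n = 3), a difference of 0.29 with a standard error of 0.15 and an adjusted p of 0.763. The second probe, A_11_P00000522 (chr21:51258408-51258467, minus strand), read 7.28, 7.52, 7.05 and 7.76 against 7.16, 7.24 and 7.35. Its difference was 0.15 with a standard error of 0.18, and deleted tumor 3 was the lowest of all 7.

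MPP1, known as p55 of the red cell membrane skeleton, differed mainly through 2 tumors. The first probe, A_11_P0000034943 (chrX:125873019-125873078, minus strand), read 9.49, 9.75, 10.76 and 9.48 in the deleted and 9.16, 10.22 and 9.23 in the wild-type tumors. Deleted tumor 3 and wild-type tumor 2 stood above the rest. The second probe, A_11_P176158 (chrX:125880226-125880285, minus strand), put the same tumors on top at 8.11 and 8.00, with the other 5 between 7.30 and 7.69. The differences were 0.33 (standard error 0.40) and 0.10 (standard error 0.25), with adjusted p of 0.917 and 0.964. At the first probe the difference was 0.035 without deleted tumor 3, 0.67 without wild-type tumor 2 and 0.014 with age as a term. Of 3 erythroid markers on the array, 2 were not well above background in any tumor and none was so in 3 or more.

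TJP1, the tight junction scaffold ZO-1 that ties claudins to actin, had a lower mean in the deleted tumors at both of its probes. The first, A_11_P051316 (chr3:41851740-41851799, minus strand), was spotted 5 times per array and read 10.70, 9.79, 10.05 and 10.51 in the deleted and 10.59, 10.53 and 10.82 in the wild-type tumors. The SD of the 5 spots within an array, which is technical error only, was 0.04 to 0.14. The second probe, A_11_P053131 (chr3:41853068-41853127, minus strand), read 8.44, 7.92, 8.06 and 8.34 against 8.50, 8.25 and 8.66. Deleted tumors 2 and 3 were the lowest at both probes, and deleted tumor 1 lay within the wild-type range at both. The differences were -0.38 (standard error 0.23) and -0.28 (standard error 0.17), with adjusted p of 0.800 and 0.793. At the first probe the difference was -0.22 without deleted tumor 2 and -0.53 without deleted tumor 1 (unadjusted p 0.044, adjusted p 0.626 in limma's test).

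**Figure D3:**
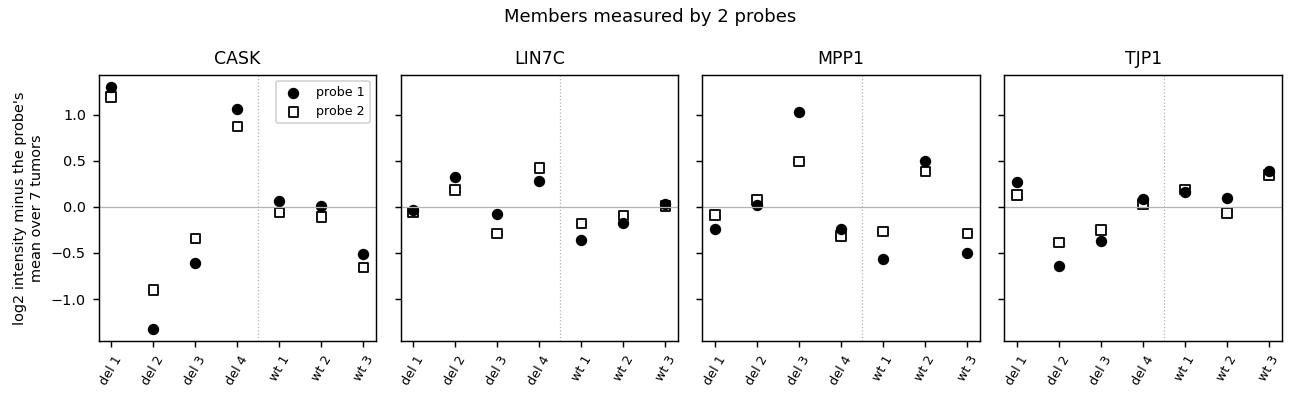
Log2 intensity minus the probe's mean over the 7 tumors (vertical axis) for the 4 members read by 2 probes, filled circles for the first and open squares for the second probe, with the deleted tumors left of the dotted line. The probes of CASK and of TJP1 share their highest and their lowest tumor, those of MPP1 share the highest, and those of LIN7C share neither.

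The agreement between probes of 1 gene was measured as the root-mean-square difference of their values after each was centred on its mean over the 7 tumors. It was 0.13 for LIN7C, 0.14 for TJP1, 0.22 for CASK and 0.26 for MPP1. Set beside the SD of the probes over the tumors, this was small for CASK (0.93 and 0.77) and TJP1 (0.37 and 0.26), and larger in proportion for LIN7C (0.24 and 0.24). For MPP1 the first probe spread more (0.58) than the second (0.33).

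DLG3, CASK and MPP1 lie on the X chromosome, so their values were also set against the sex label. The 3 tumors labelled MC and the 4 labelled FS overlapped at all 5 of these probes. The mean of MC minus FS was 0.07 for DLG3, 0.11 and 0.11 for the CASK probes and 0.17 and 0.07 for the MPP1 probes. Whether the difference between deleted and wild type itself differed by sex label was tested in limma with 2 and 2 deleted and 1 and 2 wild-type tumors under MC and FS, so it rests on a single wild-type tumor labelled MC, wild-type tumor 3. It was past the threshold for 0 of 11 member probes and 0% of the 32303 probes tested. At an unadjusted p below 0.05 it was so for 1 of 11, the first LIN7C probe, and for 7.94% of all probes.

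SCRIB and further DLG proteins could be read only through probes whose description names them. SCRIB, the scaffold that gives the scribble complex its name, had such a probe (A_11_P084346, chr13:40386882-40386941, minus strand). It read 11.57, 12.53, 11.12 and 11.76 in the deleted and 11.26, 11.46 and 11.78 in the wild-type tumors. The range of the deleted tumors enclosed that of the wild type, and the difference was 0.25 with a standard error of 0.33 (adjusted p 0.926). DLG1, the most widely expressed DLG protein, differed by -0.33 (standard error 0.21, adjusted p 0.814). DLG4, the synaptic scaffold PSD-95, was not well above background on any of the 7 arrays and was not tested.

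Beyond the members, 96 genes of the same protein families and complexes were followed, each through its probe with the highest mean. Of these 88 had a probe and 69 were tested. None was called, as for all probes, and 3 of 69 had an unadjusted p below 0.05, where 7.27% of all probes did. The mean was higher in the deleted tumors for 34 and lower for 35, and the median difference was -0.03 against 0.00 for all probes. By list, 1 of 11 MAGUK core genes, 0 of 17 genes of the scribble, PAR and crumbs complexes, 0 of 10 LIN7, CASK and guanylate kinase partners and 2 of 31 membrane partners had an unadjusted p below 0.05. All 3 were lower in the deleted tumors, but CNTNAP2 among them passed the filter only through the wild-type tumors.

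TJP3, the third zonula occludens protein, had the smallest p of these 69 genes. It read 7.65, 7.89, 7.67 and 7.40 in the deleted and 8.43, 8.16 and 8.05 in the wild-type tumors. The groups did not overlap, and the difference was -0.56 with a standard error of 0.15 (unadjusted p 0.0073, adjusted p 0.507). CNTNAP2, a neurexin-like partner of potassium channels, was not well above background in any of the 4 deleted tumors (mean 6.46) and was so in all 3 wild-type tumors (mean 6.99). CNTNAP2 thus passed the filter of 3 arrays only through the wild-type tumors. The filter favored this direction, and its p cannot be read as support for a difference. From these means its wild-type intensity was 1.44 times that of the deleted tumors (unadjusted p 0.044, adjusted p 0.678 in limma's test). The confidence interval of its log2 difference ran from -1.04 to -0.02. The size depended on the background correction, since the log2 difference was -0.53 as processed here and -3.27 and -3.19 with Agilent's processed intensity after 75th percentile scaling and quantile normalization. KCNA5, a voltage-gated potassium channel whose tail binds PDZ domains, differed by -0.71 (standard error 0.30, unadjusted p 0.049, adjusted p 0.684), and its groups overlapped. Markers of epithelial and of neural and Schwann cells moved the same way. Both kept epithelial markers of 2 with a probe had a lower mean in the deleted tumors (EPCAM -0.996 and KRT19 -0.05), with a median deviation per tumor of -0.51 to 0.38 in the deleted and -0.16 to 0.58 in the wild-type tumors. So had the 3 kept neural markers of 8 with a probe (median deviation -0.14 to 0.01 and 0.0030 to 0.19), among them SNAP25 at -0.49 (unadjusted p 0.0056, adjusted p 0.5003), and 2 of the 8 were not well above background on any array. Their part in these values was not tested.

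KCNA4, another potassium channel, had groups that did not overlap without reaching an unadjusted p of 0.05. It read 6.69, 7.11, 6.95 and 6.95 in the deleted and 7.12, 7.29 and 7.15 in the wild-type tumors, a difference of -0.26 (standard error 0.12, adjusted p 0.714).

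The genes whose pattern over the 7 tumors was most like that of the first DLG2 probe were sought among 10121 genes by the root-mean-square difference of centred log2 values. They were FRMD8 (0.13), PIAS1 (0.13), SREBF1 (0.13), DNAH9 (0.14) and OTOP1 (0.14), on chromosomes 18, 30, 5, 5 and 3. Each had wild-type tumor 2 or 3 at the top and deleted tumor 1 or 3 at the bottom, and their own differences lay between -0.80 and -0.58. For the first CASK probe, chosen for this after its spread was seen, the nearest of 10122 genes was CASK itself through its other probe (0.22), followed by MID1 (0.32), TMEM100 (0.34), NRN1 (0.34) and LARP7 (0.38). These likenesses are a description over 7 tumors, with no test.

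The tissue label was checked against markers. All 6 osteoblast markers with a probe (RUNX2, ALPL, BGLAP, COL1A1, COL1A2 and SPARC) were well above background in all 7 tumors. Single tumors stood apart in other tissues. The median deviation of 5 adipocyte markers was 3.12 in deleted tumor 4 and between -0.61 and -0.28 in the others. That of 5 osteoclast markers was 2.77 in wild-type tumor 3 and between -1.44 and 0.77 in the others. The difference at the first DLG2 probe was -0.79 without deleted tumor 4 and -0.68 without wild-type tumor 3. All 5 cartilage markers had a higher mean in the deleted tumors (median difference 0.78), as had all 6 kept endothelial markers (0.36). All 5 osteoclast markers had a lower one (-1.55), though CALCR among them by only -0.00016. None of these cartilage, endothelial and osteoclast markers had an unadjusted p below 0.05, and their part in the member values was not tested.

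**Figure D4:**
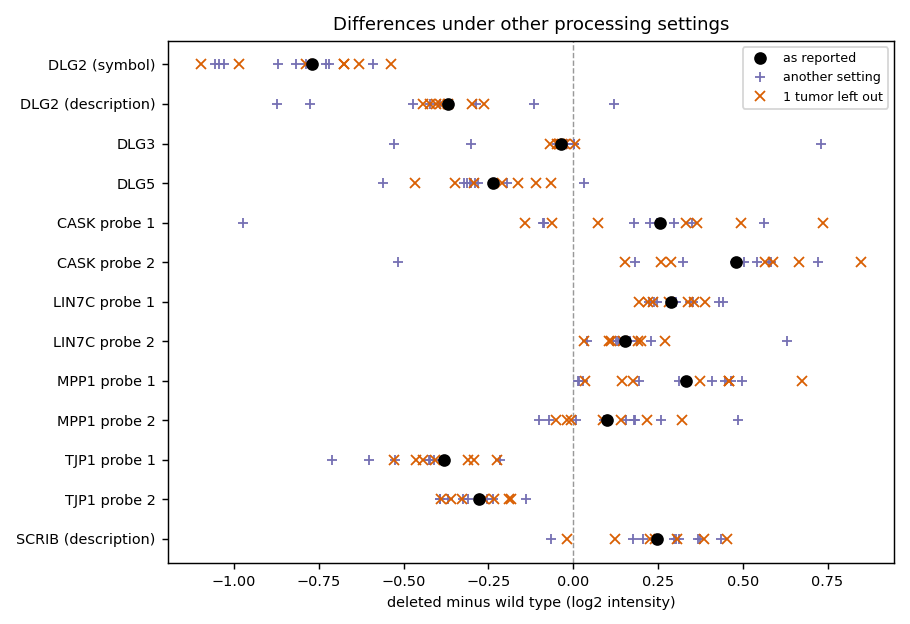
Difference between deleted and wild-type tumors on the log2 scale (horizontal axis) for the 11 member probes and the probes that name DLG2 and SCRIB in their description, as reported (black), under other processing settings (purple plus signs) and with 1 tumor left out (orange crosses). The first DLG2 probe stayed between -1.10 and -0.54, both TJP1 probes stayed below 0 and both LIN7C probes above 0. CASK, DLG3, DLG5, the second MPP1 probe, the second DLG2 probe and SCRIB had values on both sides of 0.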

How the data were processed

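RNA of 7 canine osteosarcomas was measured on 1-color Agilent arrays, 4 DLG2 deleted and 3 wild type per the labels. The deposited scanner files hold, per the file headers, spot and local background intensity on a linear scale as written by Agilent Feature Extraction 10.7.3.1, with probe coordinates on canFam2. For their own comparison the authors name RMA normalization and a correction for a batch they do not specify.

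Here mean spot intensity was background-corrected with normexp (offset 50), quantile-normalized and put on the log2 scale in limma 3.58.1 (R 4.3.3). These log2 values were computed here from the deposited intensities. Control spots and 144 outlier-marked values were left out, and replicate spots averaged, giving 43603 probes. The 32309 probes well above background on at least 3 arrays were tested together with lmFit and eBayes (two-sided, no covariate), with Benjamini-Hochberg adjustment. The code was tested on simulated data. The number of arrays limits the precision. No spot was saturated.

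The members, lists and tests were chosen with earlier results of these data known. All member probes are named. Listed pathway genes are named at an unadjusted p below 0.05 or with groups that do not overlap. One gene that met this rule is not reported here, though the counts include it. For DLG2 and the first CASK probe the 5 genes of nearest pattern are named. Of 22 probes without a symbol the gene was read from the description. Alternatives were Agilent's processed intensity with 75th percentile scaling or quantile normalization, normexp with 75th percentile scaling, other filters, the methods' t-test in place of limma's, slide, extraction session, sex label or age as a term, array weights, wild-type tumors 1 and 2 as 1 tumor, and leaving out each tumor.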

Additional observations from a re-analysis of the deposited data

How the results depend on the processing

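No member probe was called under any of the 19 alternatives run. The first DLG2 probe was lower in the deleted tumors in all 19, between -1.10 and -0.54 on the log2 scale, with a smallest adjusted p of 0.547. The TJP1 probes, the LIN7C probes and the first MPP1 probe also kept their sign, except that relative to the median of all probes the first MPP1 probe was at -0.12 with normexp and 75th percentile scaling, where the first LIN7C probe was at 0.029. An unadjusted p below 0.05 was reached by 1 member probe each with the extraction session as a term (DLG2), with array weights (LIN7C, first probe) and with wild-type tumors 1 and 2 as 1 tumor (DLG2), and by 0 to 2 with 1 tumor left out.

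The sign turned as follows. With normexp and 75th percentile scaling, which moved the median difference of all probes to 0.32, DLG3 was at 0.73, the first CASK probe at -0.090, the second DLG2 probe at 0.12 and SCRIB at -0.065. Relative to that median, the second DLG2 probe was at -0.20. With the slide as a block, only the slide that held both groups informs the difference, so the values repeat that slide's own comparison. DLG3 was then at 0.0033, the CASK probes at -0.97 and -0.52 and the second MPP1 probe at -0.10. With the extraction session as a term DLG3 was at 0.00088, DLG5 at 0.031 and the second MPP1 probe at -0.070. With array weights the first CASK probe was at -0.086. With 1 tumor left out, the first CASK probe ranged from -0.14 to 0.74, DLG3 from -0.069 to 0.0050, the second MPP1 probe from -0.052 to 0.32 and SCRIB from -0.018 to 0.45. DLG5 ranged from -0.47 to -0.07, the second CASK probe from 0.15 to 0.85, the LIN7C probes from 0.19 to 0.39 and 0.03 to 0.27, the first MPP1 probe from 0.03 to 0.67 and the TJP1 probes from -0.53 to -0.22 and -0.39 to -0.18. The causes were not tested.

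Over all probes, 10 were called with the processed intensity and 75th percentile scaling, 4 with it and quantile normalization, 23 with normexp and 75th percentile scaling, 8 with array weights, and 0 to 46 with 1 tumor left out, 46 of them without wild-type tumor 3. The count at an unadjusted p below 0.05, 2349 as reported, was 1087 with normexp and 75th percentile scaling, 1373 with the slide as a block, 4357 with array weights, 1405 with wild-type tumors 1 and 2 as 1 tumor, and 1424 to 2989 with 1 tumor left out. Of the pathway genes 3 passed it as reported, 1 with normexp and 75th percentile scaling, with the methods' t-test or with wild-type tumors 1 and 2 as 1 tumor, 7 with the slide as a block, 8 with the session, 5 with age, 9 with array weights, and 1 to 8 with 1 tumor left out. The only pathway gene called anywhere was KCNA1, without wild-type tumor 3 (-2.56, adjusted p 0.0628), so pathway calls ranged from 0 to 1. That setting, which also gave the 46 calls over all probes, left only wild-type tumors 1 and 2, the pair most alike. These calls therefore rest on little more than 1 wild-type profile. KCNA1 was low in wild-type tumor 3 as well. Its wild-type tumors read 9.15, 9.61 and 6.47 and the deleted tumors 6.49 to 7.15. No paired analysis was possible because the tumor numbers only name tumors and the labels give no pairing.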
